A study of Mus musculus with 16 samples.

Results

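The difference between the NOD and C57BL/6 (B6) backgrounds was measured in regulatory T cells (Treg) and in conventional T cells (Tconv), and the effect in Tconv was subtracted from that in Treg for each of 12798 genes. The contrast used all 16 of the 16 arrays of the study: 8 Treg arrays and 8 Tconv arrays. CD4+ T cells were sorted by GFP from spleen (male mice, age 6 weeks), GFP-positive cells as Treg and GFP-negative cells as Tconv. Every mouse carried a GFP reporter at the Foxp3 locus. In the fusion allele (Foxp3-GFP) GFP is joined to the Foxp3 protein, and in the ires allele (Foxp3-ires-GFP) GFP is translated separately and Foxp3 is left as it is. Strain (B6 or NOD), allele and cell type gave 8 groups of 2 arrays: B6 fusion, B6 ires, NOD fusion and NOD ires, each as Treg and as Tconv. No mice without a reporter enter the comparison, and whether the arrays of a group came from separate or pooled mice is not given in the sources used here, so the p-values measure a spread that may be technical.

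Treg are CD4+ T cells that restrain immune responses. The transcription factor Foxp3 holds their identity, and they carry a set of surface receptors, such as CD25, CTLA-4, GITR and OX40, at higher levels than Tconv. NOD mice develop autoimmune diabetes, while B6 mice do not, and the strains differ at many loci, the MHC among them. A background effect of equal measured size on the log scale in both cell types cancels in the contrast used here. A shared loss need not cancel where a level is already near background, since it cannot be measured in full there. What is left are genes whose measured strain difference depends on the cell. In the same arithmetic, these are genes whose Treg against Tconv difference is not the same in NOD as in B6.

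Markers of the sorted cells were as labelled. Foxp3 read between 11.37 and 12.16 (log2 intensity) on the 8 Treg arrays and between 7.01 and 8.18 on the 8 Tconv arrays. Cd4 lay between 11.04 and 11.72 and Cd3e between 11.03 and 11.84 over all arrays. Of the markers of other cells, those of B cells and plasma cells were below the detection floor used here, 6.06, on all 16 arrays for 9 of 21 measured genes, Ms4a1 and Cd79a among them, and above it on all arrays for 3, with Cd79b at 6.32 to 7.75. For myeloid and dendritic cells 12 of 28 were below it throughout and 2 above it throughout, and for CD8, NK and gamma-delta T cells 4 of 18, with Ncr1, and 6. The counts were 2 and 4 of 10 for MHC class II and 3 and 3 of 8 for red cells and platelets. Cd8a exceeded the floor on 13 of 16 arrays and Lyz2 on 3. The library NOD fusion Tconv replicate 1 stood apart in B cell genes, with Ms4a1 at 5.75 against 4.12 to 4.65 on the other NOD Tconv arrays and Cd79a at 5.93 against 4.80 to 5.25. Without it, 87 genes were called in the contrast below. In sorted bulk samples, fewer cells of a type and less RNA per cell cannot be told apart.

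The strain difference depended on the cell type for 105 of the 12798 genes (0.820%), called at a Benjamini-Hochberg adjusted p under 0.05 by limma. NOD minus B6 was more positive in Treg for 32 genes (0.250%) and more negative in Treg for 73 (0.570%), and 36 of the 105 differed by at least 1 on the log2 scale, 13 of them higher and 23 lower. The background effects themselves were broader: 2690 genes (21.0%) were called between NOD and B6 in Treg, and 2033 (15.9%) in Tconv. Across the 12798 genes the effects in Treg and in Tconv, from different arrays, had a Pearson r of 0.74 and a Spearman rho of 0.71, given as a description. The median contrast of all genes was -0.01. For 27 of the 105 genes all 4 arrays of at least 1 strain and cell type were below the floor, where a level is only a bound, and with values raised to the floor 17 of these 27 and 60 of the other 78 were called. Leaving out B6 fusion Tconv replicate 1 reduced the calls to 69, and the split of higher to lower calls moved to 43 and 47 with arrays centred on their medians to 61 and 85 with quantile normalization, and to 76 and 99 with the interquartile range of each array as a covariate, a setting chosen after seeing the data. Lower calls numbered 46 without B6 fusion Tconv replicate 1 or without NOD ires Treg replicate 1, and 110 without B6 ires Tconv replicate 2.

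**Figure D1:**
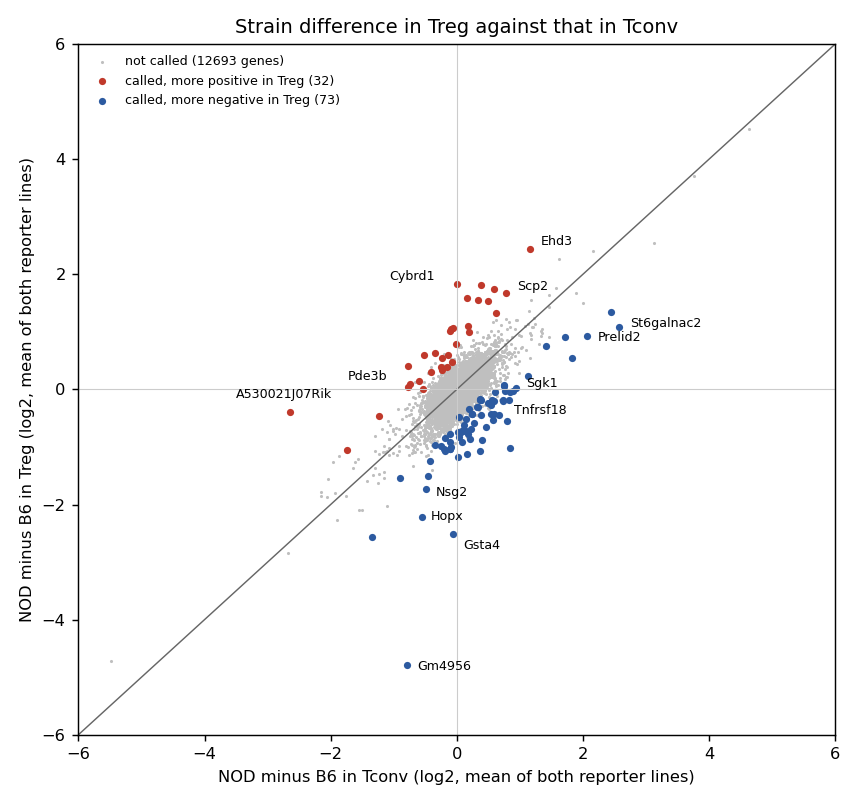
Each point is a gene, with NOD minus B6 in Tconv (log2, x axis) against NOD minus B6 in Treg (log2, y axis), each the mean of the fusion and ires lines; the diagonal marks an equal strain difference. The 32 red genes lie above the diagonal, the 73 blue genes below it, and the grey genes were not called; Gm4956 and Gsta4 lie farthest below it.

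Called genes fell into 4 kinds by their strain effect in each cell type. For 47 genes NOD differed from B6 in Treg only, for 23 in Tconv only, for 24 in both in the same direction but by unequal amounts, and for 11 in both in opposite directions. The strains' Treg arrays did not overlap for 73 of the 105 genes, their Tconv arrays for 57, and neither overlapped for 32. These counts come from the arrays of the contrast, whose calls favour them, and the counts over all genes are not given here. For 67 of the 105 genes the Treg against Tconv difference was smaller in size in NOD than in B6, and for 38 it was larger. Over all 12798 genes it was smaller in NOD for 6882 (53.8%). Of the 73 lower genes, 57 were called higher in Treg than in Tconv within B6, a count that shares the B6 arrays with the contrast. The share of all genes so called is not given here.

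Some of the most negative contrasts, those of Gsta4, Hopx and Gm4956, were of genes that B6 Treg expressed and that NOD Treg held at about the Tconv level. Values are log2 intensities in the order fusion 1, fusion 2, ires 1, ires 2, and where a whole group lay below the floor, the contrast with values raised to it is given too. Gsta4, a glutathione transferase that detoxifies products of lipid peroxidation (probe set 10587315), read 8.54, 8.47, 8.36 and 8.67 in B6 Treg and 5.72, 6.15, 6.26 and 5.84 in NOD Treg. In Tconv it read 6.00, 5.97, 6.00 and 6.09 in B6 and 6.04, 5.70, 6.14 and 5.94 in NOD. All 4 NOD Treg arrays were below all 4 B6 Treg arrays, and the Tconv arrays of the strains overlapped. The contrast was -2.46 ± 0.17 (SE, adjusted p = 8.98e-08), and Treg exceeded Tconv by 2.50 in B6 and by 0.04 in NOD.

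Hopx, a small homeodomain protein that does not bind DNA (probe set 10530819), followed a like course. Its B6 Treg arrays were at 8.78, 8.65, 8.29 and 8.34, and its NOD Treg arrays at 6.29, 6.34, 6.34 and 6.25. B6 Tconv read 6.48, 6.73, 6.52 and 7.06 and NOD Tconv 6.35, 5.99, 6.08 and 6.15. NOD was lower in both cell types without overlap, by -2.21 in Treg and -0.56 in Tconv, and the contrast was -1.66 ± 0.16 (adjusted p = 1.09e-05). Gm4956, a predicted gene chosen after its values were seen, had the most negative contrast of the 12798 genes, -3.99 ± 0.17 (adjusted p = 1.01e-10). It read 9.59, 9.62, 9.67 and 9.30 in B6 Treg, 4.71, 4.86, 4.71 and 4.76 in NOD Treg, and 4.77 to 6.00 in Tconv, so that only B6 Treg was above the floor, and raised to the floor the contrast was -3.49 ± 0.10 (adjusted p = 2.11e-09). Whether sequence differences between NOD and the arrays' probes take part in such losses was not tested.

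Among other genes of the largest losses, the strains' Treg arrays were apart for Cep112 and Nsg2 and overlapped for Atp6v0d2. Cep112, which encodes a centrosomal protein, read 6.23, 6.49, 5.51 and 5.71 in B6 Treg, 4.97, 4.70, 4.85 and 4.74 in NOD Treg, and 4.66 to 5.04 in Tconv, so that only the B6 fusion Treg arrays were above the floor. Its contrast was -1.19 ± 0.15 (adjusted p = 0.000309), and with values raised to the floor it was -0.15 ± 0.08 (adjusted p = 0.588) and the call was lost. Atp6v0d2, which belongs to the proton pump of vacuoles and lysosomes, fell by 1.12 in NOD Treg, with a contrast of -1.28 ± 0.19 (adjusted p = 0.00154), or -1.12 raised to the floor, since Tconv was below it. Its levels differed between the lines, at 8.08, 8.45, 6.67 and 6.98 in B6 Treg and 6.73, 6.77, 6.04 and 6.16 in NOD Treg. Nsg2, a vesicle trafficking protein best known from neurons, differed in kind, since Tconv held more of it than Treg. It was at 9.37, 9.44, 9.67 and 9.71 in B6 Treg and 7.63, 7.73, 7.87 and 8.05 in NOD Treg, while Tconv differed less, by -0.48. The contrast for Nsg2 was -1.24 ± 0.12 (adjusted p = 1.04e-05).

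Genes gained in NOD Treg were led by Cybrd1, a membrane reductase of the cytochrome b family that reduces ferric iron (probe set 10472757). It read 6.63, 6.72, 7.14 and 6.68 in B6 Treg and 8.38, 8.27, 8.72 and 9.13 in NOD Treg. Tconv lay at 5.66 to 6.19 in B6 and 5.82 to 6.03 in NOD. Every NOD Treg array was above every other array, NOD minus B6 was 1.83 in Treg and 0.01 in Tconv, and the contrast was 1.82 ± 0.18 (adjusted p = 1.88e-05), or 1.89 raised to the floor, below which all NOD Tconv arrays lay.

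Atrnl1, a membrane protein related to attractin, was at 6.51, 6.52, 6.35 and 6.55 in B6 Treg and at 8.36, 8.58, 8.15 and 8.07 in NOD Treg, with Tconv at 6.57 to 6.73 in B6 and 6.94 to 7.18 in NOD. Its NOD Treg arrays were again above all others, and the contrast was 1.43 ± 0.13 (adjusted p = 6.09e-06). Tex35 had a contrast of 1.43 ± 0.17 (adjusted p = 0.000188), and its NOD Treg arrays, at 6.75 to 7.50, were above all other arrays, at 5.30 to 5.99. Those 12 arrays were below the floor, so the contrast is a bound, 0.94 ± 0.14 with values raised to the floor (adjusted p = 0.00771). Klf12, a transcriptional repressor of the Krüppel-like family, Ntn4, a secreted netrin, and Stra6, a receptor for retinol-binding protein, rose in NOD Treg by 1.05, 1.06 and 1.01, with NOD minus B6 in Tconv at -0.09, -0.07 and -0.11. Their contrasts were 1.14, 1.13 and 1.12, that of Klf12, below the floor in Tconv, 0.83 raised to it. The ceramide synthase gene Cers6 rose by 1.10 in Treg, with 0.18 in Tconv (contrast 0.92 ± 0.14, adjusted p = 0.00214).

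For other genes, NOD Treg lay nearer to the Tconv level than B6 Treg did. Ehd3, which acts in endocytic recycling, read 7.32, 7.95, 8.28 and 8.27 in B6 Treg and 10.26, 10.13, 10.77 and 10.42 in NOD Treg. Tconv read 9.42 to 9.64 in B6 and 10.66 to 10.85 in NOD. NOD was higher in both cells without overlap, by 2.44 in Treg and 1.16 in Tconv (contrast 1.28 ± 0.17, adjusted p = 0.000366), and Treg minus Tconv was -1.59 in B6 and -0.31 in NOD. Rflnb, which binds filamin, had -2.17 in B6 and -0.95 in NOD (contrast 1.22 ± 0.14, adjusted p = 9.05e-05). Il18r1, the ligand-binding chain of the interleukin-18 receptor, crossed over: Treg minus Tconv was -0.62 in B6 and 0.42 in NOD. Its Treg arrays were at 7.44, 7.53, 7.78 and 7.65 in B6 and at 8.78, 9.13, 9.32 and 9.28 in NOD (contrast 1.04 ± 0.16, adjusted p = 0.00201).

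**Figure D2:**
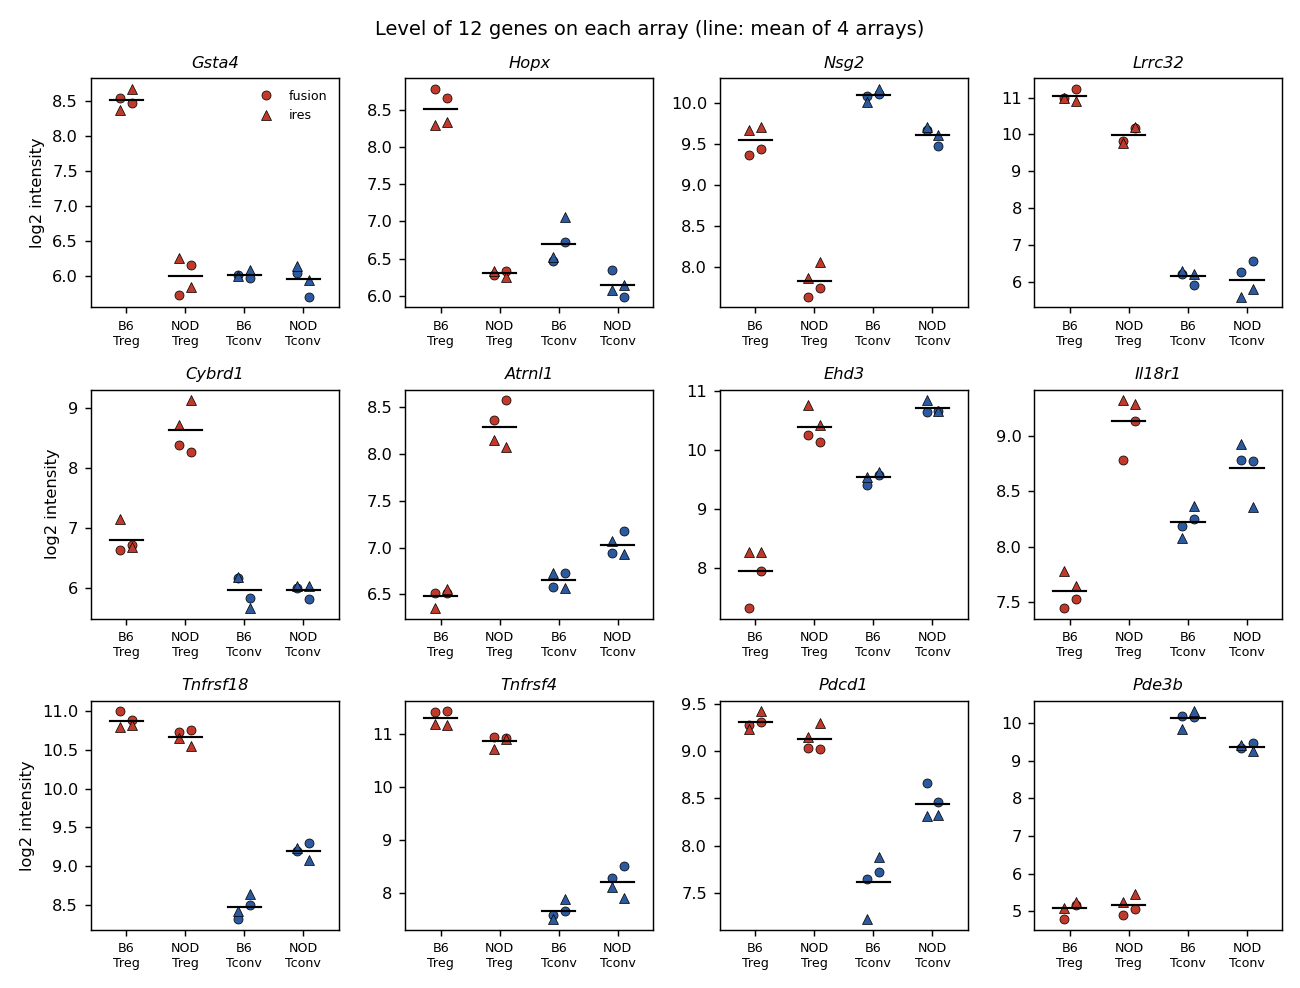
Level of 12 genes (log2 intensity, y axis) on each of the 16 arrays, by strain and cell type; circles are fusion and triangles ires lines, red is Treg and blue Tconv, and the line is the mean of 4 arrays. Gsta4 and Hopx were high in B6 Treg alone, Cybrd1 and Atrnl1 in NOD Treg, and Tnfrsf18 and Pdcd1 differed between the strains mainly in Tconv.

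Genes that mark Treg were less different from Tconv in NOD than in B6. Of 37 tested genes of the Treg signature list, 8 were called in the contrast, all lower, against 0.820% of all genes, and 31 had a negative value. The median contrast of the list was -0.43, the median Treg minus Tconv difference was 2.91 in B6 and 2.29 in NOD, and the list kept its sign under every alternative run (-0.54 to -0.32). The 8 were Klrg1, Socs2, Il10, Tnfrsf4, Tnfrsf18, Lrrc32, Tigit and Swap70. With values raised to the floor, the calls of Klrg1, Socs2, Il10 and Tigit were lost (adjusted p = 0.153, 0.0655, 0.195 and 0.0622 by limma). Il10 was above the floor on 2 B6 Treg arrays alone. Between the strains, 20 of the 37 were called lower and 4 higher in NOD Treg, against 9.82% and 11.2% of all genes, and in NOD Tconv 9 were called higher and 4 lower, against 9.39% and 6.49%.

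Foxp3 and some of the best known members of the programme did not pass the test. Foxp3 itself had a contrast of -0.35 ± 0.22 (adjusted p = 0.683), the transcription factor gene Ikzf2 of -0.56 ± 0.18 (adjusted p = 0.220) and the inhibitory receptor gene Ctla4 of -0.43 ± 0.23 (adjusted p = 0.582). Il2ra, which encodes CD25, had a larger value, -1.02 ± 0.30 (adjusted p = 0.177). Its Treg arrays overlapped between strains, at 11.22 to 11.37 in B6 and 10.78 to 11.37 in NOD, while in Tconv it read 5.27, 5.56, 5.36 and 5.82 in B6 and 5.91, 6.82, 6.94 and 5.73 in NOD, where all B6 and 2 NOD arrays were below the floor; raised to it, the contrast was -0.58. Il2ra was called in 1 and Ikzf2 in 1 of the 16 fits that leave out an array.

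**Figure D3:**
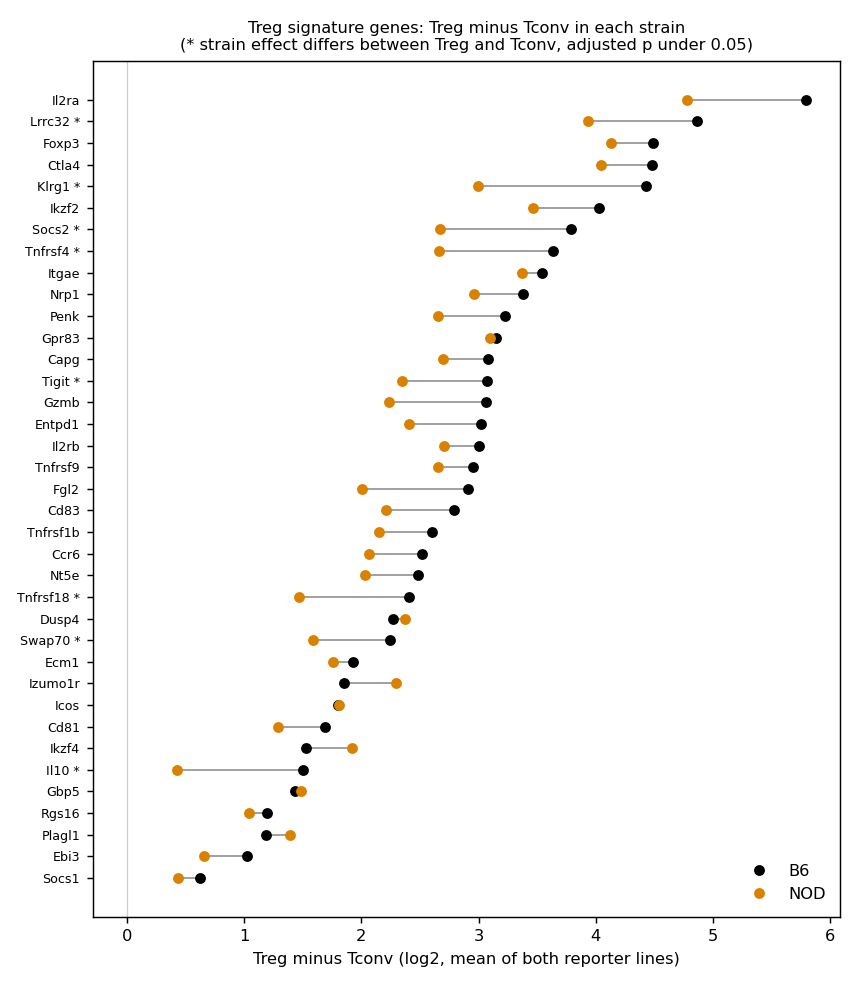
Treg minus Tconv (log2, mean of both reporter lines, x axis) for each of the 37 tested Treg signature genes (y axis), in B6 (black) and NOD (orange); an asterisk marks the 8 genes called in the contrast. For 31 of the 37 genes the NOD point lies to the left of the B6 point.

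Lrrc32, which displays latent TGF-beta on the Treg surface, fell in NOD Treg. It read 10.98, 11.23, 10.99 and 10.91 in B6 Treg and 9.83, 10.17, 9.75 and 10.20 in NOD Treg, and 5.59 to 6.58 in Tconv. The strains' Treg arrays did not overlap, NOD minus B6 was -1.04 in Treg and -0.11 in Tconv, and the contrast was -0.93 ± 0.17 (adjusted p = 0.00675). Ccr8, a chemokine receptor of effector Treg, went the same way, with 9.46, 9.57, 8.80 and 8.60 in B6 Treg and 8.44, 8.37, 8.26 and 8.28 in NOD Treg (contrast -0.94 ± 0.17, adjusted p = 0.00635, or -0.77 raised to the floor, below which Tconv lay). Swap70, a regulator of the actin cytoskeleton, fell by 0.51 in NOD Treg (contrast -0.66 ± 0.11, adjusted p = 0.00554).

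Of 18 tested effector Treg genes, 4 were called, against 0.820% of all genes, and all 4 were lower: Klrg1, Il10, Ccr8 and Tigit. The median of that list was -0.46, with Treg minus Tconv at 1.91 in B6 and 1.47 in NOD, and 10 of the 18 were called lower and 0 higher in NOD Treg (9.82% and 11.2% of all genes). The list shares Klrg1, Il10 and Tigit with the Treg signature. Klrg1, an inhibitory receptor of differentiated effector cells, had a contrast of -1.44 ± 0.31 (adjusted p = 0.0310) and read 10.46, 10.10, 10.09 and 8.65 in B6 Treg and 8.75, 8.55, 8.86 and 8.87 in NOD Treg. The last B6 ires array lay within the NOD range. The cytokine gene Il10 was at -1.07 ± 0.24 (adjusted p = 0.0387), the inhibitory receptor gene Tigit at -0.73 ± 0.16 (adjusted p = 0.0312), and the chemokine receptor gene Ccr4, of the chemokine and adhesion list, at -0.86 ± 0.19 (adjusted p = 0.0418). These calls of Klrg1, Il10, Tigit and Ccr4 were kept in 7, 5, 5 and 3 of the 16 fits that leave out an array, with adjusted p reaching 0.120, 0.138, 0.101 and 0.129, and in 4 of 10, 5 of 9, 7 of 10 and 4 of 10 other settings that tested them. Il10 was below the floor on all arrays but 2 of B6 Treg, and raised to the floor its contrast was -0.40 ± 0.12 (adjusted p = 0.195); that of Klrg1, below it in B6 Tconv, was -1.15 (adjusted p = 0.153).

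In the list of IL-2 receptor and STAT5 genes, 1 of 15 was called, against 0.820% of all genes, and it was lower. This was Socs2, a STAT5-induced suppressor of cytokine signalling, at 8.95, 9.17, 9.45 and 9.43 in B6 Treg, 8.67, 8.72, 8.74 and 9.07 in NOD Treg, 5.71, 5.47, 4.87 and 5.77 in B6 Tconv and 5.77, 5.80, 6.73 and 6.23 in NOD Tconv. It was lower in NOD Treg by -0.45 and higher in NOD Tconv by 0.67 (contrast -1.12 ± 0.21, adjusted p = 0.0124). Leaving out B6 fusion Treg replicate 2 gave an adjusted p of 0.0660, with values raised to the floor, below which B6 Tconv lay, the contrast was -0.66 (adjusted p = 0.0655), and a second probe set of Socs2 gave -0.41. The median of the list was -0.25.

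Tnfrsf4, which encodes OX40, and Tnfrsf18, which encodes GITR, are costimulatory receptors of the TNF receptor superfamily that Treg carry constitutively. Both were called, and in both the strain difference was larger in Tconv than in Treg. Tnfrsf18 (probe set 10511290) averaged 10.88 ± 0.09 (SD, n = 4) in B6 Treg and 10.67 ± 0.09 (SD, n = 4) in NOD Treg, a difference of -0.21 that was not called. In Tconv it read 8.31, 8.50, 8.43 and 8.64 in B6 and 9.20, 9.29, 9.24 and 9.07 in NOD, without overlap, a rise of 0.73. The contrast was -0.94 ± 0.12 (adjusted p = 0.000309). Tnfrsf4 (probe set 10511282) fell by 0.43 in NOD Treg and rose by 0.55 in NOD Tconv, for a contrast of -0.97 ± 0.13 (adjusted p = 0.000611). Its arrays were at 11.40, 11.42, 11.19 and 11.17 in B6 Treg, 10.94, 10.91, 10.72 and 10.91 in NOD Treg, 7.59, 7.66, 7.51 and 7.89 in B6 Tconv and 8.29, 8.50, 8.12 and 7.91 in NOD Tconv, with no overlap between strains in either cell. Of the 28 tested TNF superfamily receptors and ligands, these were the 2 called, against 0.820% of all genes, and the list's median was -0.09.

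Tnfrsf4 and Tnfrsf18 lie near each other on chromosome 4, with 1 tested gene, the predicted gene Gm16008, between them in the reference order, at 0.08 ± 0.17 in the contrast. The windows of 250 bases before their RefSeq start sites (GRCm38.p6, the B6 reference, plus strand) are shown because these neighbours shifted by like amounts, and that of Cybrd1 because it led the gains. Capitals mark matches, on either strand, to the STAT motif TTCNNNGAA, the forkhead motif TGTTTAC or the AP-1 motif TGACTCA, which do not overlap here.
Tnfrsf4, chr4:156013445-156013694: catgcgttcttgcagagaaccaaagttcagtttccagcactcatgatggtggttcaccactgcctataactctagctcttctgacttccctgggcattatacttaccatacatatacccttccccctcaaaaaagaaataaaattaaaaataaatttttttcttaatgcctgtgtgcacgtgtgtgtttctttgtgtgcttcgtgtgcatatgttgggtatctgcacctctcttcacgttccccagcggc
Tnfrsf18, chr4:156026072-156026321: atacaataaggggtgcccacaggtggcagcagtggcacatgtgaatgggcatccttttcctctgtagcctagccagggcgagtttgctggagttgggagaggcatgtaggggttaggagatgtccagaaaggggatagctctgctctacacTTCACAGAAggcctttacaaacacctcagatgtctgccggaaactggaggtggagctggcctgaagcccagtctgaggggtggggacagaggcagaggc
Cybrd1, chr2:71117804-71118053: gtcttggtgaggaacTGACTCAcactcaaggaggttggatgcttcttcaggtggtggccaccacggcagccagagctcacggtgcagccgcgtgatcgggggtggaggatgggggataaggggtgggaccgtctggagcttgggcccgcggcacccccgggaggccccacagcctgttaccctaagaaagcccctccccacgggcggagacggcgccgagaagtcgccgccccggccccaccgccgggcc
The Tnfrsf18 window held 1 STAT match, the Cybrd1 window 1 AP-1 match and the Tnfrsf4 window none of the 3. The windows of the 2 start sites of Hopx, searched but not printed, held none either. Of 32851 promoter windows of that length, 7.02% held the STAT motif, 3.17% the forkhead motif and 4.46% the AP-1 motif. A match describes letters and no binding was measured.

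A group of genes differed between the strains in Tconv and not, by the test, in Treg. Pdcd1, which encodes the inhibitory receptor PD-1, read 7.65, 7.72, 7.23 and 7.88 in B6 Tconv and 8.66, 8.46, 8.31 and 8.33 in NOD Tconv, without overlap. In Treg it read 9.28, 9.30, 9.23 and 9.42 in B6 and 9.03, 9.02, 9.15 and 9.29 in NOD. The contrast was -1.01 ± 0.16 (adjusted p = 0.00222), from 0.82 in Tconv and -0.18 in Treg. Sgk1, a salt-sensitive kinase, P2rx7, an ATP-gated ion channel, and Plaur, the urokinase receptor, were picked after their values were seen. They rose in NOD Tconv by 0.93, 0.73 and 1.13, with 0.02, -0.19 and 0.24 in Treg, and had contrasts of -0.92, -0.92 and -0.88, that of Plaur, below the floor in B6 Treg, -0.98 raised to it.

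Pde3b, a phosphodiesterase that degrades cAMP and is low in Treg, went the other way. It read 10.17, 10.15, 9.84 and 10.31 in B6 Tconv and 9.34, 9.47, 9.40 and 9.27 in NOD Tconv, a difference of -0.75 without overlap, while all Treg arrays lay below the detection floor, at 4.79 to 5.47. The contrast was 0.84 ± 0.16 (adjusted p = 0.00946), or 0.75 raised to the floor. A530021J07Rik, also picked after its values were seen, was lower in NOD Tconv by -2.64, at 7.23 to 7.52 in B6 and 4.58 to 5.01 in NOD (contrast 2.25 ± 0.15, adjusted p = 8.98e-08). Its NOD Tconv arrays and its Treg arrays, at 4.34 to 5.13, were all below the floor, so these values are differences from background, and raised to the floor the contrast was 1.33 ± 0.09 (adjusted p = 9.14e-06).

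Some rises in NOD Tconv were of genes that Treg express more highly than Tconv, and Foxp3 was among them: 7.09, 7.06, 7.40 and 7.01 in B6 Tconv against 7.12, 8.18, 7.57 and 7.68 in NOD Tconv (a rise of 0.50, adjusted p = 0.0391 by limma). Set against the B6 Treg intensity on the linear scale, the rise of Foxp3 from B6 to NOD Tconv amounted to 1.84%, that of Ikzf2 to 3.26% and that of Tnfrsf4 to 3.70%. For Tnfrsf18 it was 12.4%, for Pdcd1 23.8% and for P2rx7 23.1%. For Ctla4 and Lrrc32 it was -0.581% and -0.247%, and the median over the 37 signature genes was 1.44%. The part that Treg among the GFP-negative cells have in these values was not tested.

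The 11 genes with opposite strain effects included 9 that were lower in NOD Treg and higher in NOD Tconv. Glrx, the thiol reductase glutaredoxin, read 10.58, 10.55, 10.25 and 9.52 in B6 Treg, 9.91, 9.78, 9.64 and 9.41 in NOD Treg, 7.89, 8.02, 7.96 and 8.35 in B6 Tconv and 8.79, 8.64, 9.03 and 8.96 in NOD Tconv. Its Treg arrays overlapped between strains and its Tconv arrays did not. The contrast was -1.34 ± 0.18 (adjusted p = 0.000575). Matn2, a matrilin of the extracellular matrix, was lower in NOD Treg by -0.88 and higher in NOD Tconv by 0.40 (contrast -1.27 ± 0.14, adjusted p = 6.12e-05), but all its Tconv arrays were below the floor, and raised to it the contrast, -0.88, rests on Treg alone. Tmem273 had -0.66 and 0.46. Id2, an inhibitor of E protein transcription factors, had -0.43 and 0.59 (contrast -1.03 ± 0.20, adjusted p = 0.0153), and its adjusted p went to 0.0757 when B6 fusion Treg replicate 1 was left out. Id2 was called in 8 of 10 other settings.

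Lgmn, the lysosomal endopeptidase legumain, was 1 of the 2 with a rise in NOD Treg and a fall in NOD Tconv. In Treg it read 9.14, 9.19, 8.75 and 8.26 in B6 and 9.31, 9.13, 9.16 and 9.35 in NOD. Its Treg arrays overlapped between strains in the fusion lines and not in the ires lines. In Tconv it read 8.68, 8.46, 8.33 and 8.55 in B6 and 7.67, 7.59, 7.67 and 8.01 in NOD, without overlap, and the contrast was 1.17 ± 0.16 (adjusted p = 0.000575). The other was Ust, a sulfotransferase of glycosaminoglycans, at 0.59 in Treg and -0.52 in Tconv.

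St6galnac2, a sialyltransferase, was higher in NOD in both cells, and by more in Tconv. St6galnac2 read 6.89, 6.37, 6.67 and 7.07 in B6 Treg, 7.79, 7.75, 7.90 and 7.88 in NOD Treg, 6.55 to 6.90 in B6 Tconv and 9.12, 9.85, 9.23 and 9.14 in NOD Tconv. Treg minus Tconv was -0.02 in B6 and -1.51 in NOD (contrast -1.49 ± 0.20, adjusted p = 0.000575). Cnga1, a cyclic nucleotide-gated channel gene, was above the floor in NOD Tconv only, and with values raised to the floor its contrast was -1.52 ± 0.07 (adjusted p = 3.45e-07), from a rise of at least 1.52 in Tconv and levels below the floor in Treg of both strains. Prelid2 rose in NOD by 0.93 in Treg and 2.07 in Tconv (contrast -1.14 ± 0.16, adjusted p = 0.000791). All its B6 Tconv arrays and 3 of its B6 Treg arrays were below the floor, and raised to it the contrast was -0.48 ± 0.14 (adjusted p = 0.162) and the call was lost.

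Cell cycle genes formed a list with many small values of the same sign. None of the 36 tested was called in the contrast by limma, and 34 were negative, with a median of -0.25, against 6911 of 12798 genes (54.0%) negative and a median of -0.01 over all. In NOD Treg 25 of the 36 were called lower than in B6 Treg and 0 higher, against 9.82% and 11.2% of all genes. In Tconv 9 were called lower and 2 higher, against 6.49% and 9.39%. The replication licensing gene Mcm5, picked after its value was seen, was at -0.49 in the contrast (adjusted p = 0.0953). With values raised to the floor, Birc5, Cdca8 and Kif11 passed limma (adjusted p = 0.0213, 0.0191 and 0.0380), each with Tconv arrays below it. Called genes outside this list, picked after their values were seen, included the histone genes H2bc3 and H2bc14, at -0.93 and -0.80. H2az1 and Pclaf, at -0.87 and -0.73, were also called, but each call was lost when any of several single arrays was left out. Both calls were lost with arrays centred on their medians (adjusted p = 0.0748 and 0.0740 by limma). They were also lost with values raised to the floor (0.0719 and 0.0614). With probe sets averaged, Pclaf was at -0.59 (adjusted p = 0.175 by limma), and its second probe set gave -0.44. Naive and recirculating T cell genes had mostly positive values, with 0 of 13 called, 11 positive and a median of 0.18. The highest of them, picked for that, was Bach2, a repressor that restrains effector differentiation, at 0.43 (adjusted p = 0.287).

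The other lists had at most 4 calls each, where 0.820% of all genes were called, 0.250% higher and 0.570% lower. Of 25 genes in diabetes susceptibility (Idd) regions, 4 were called lower, Tnfrsf18, Tnfrsf4, Lrrc32 and Il10, which the Treg signature also holds. Il10 was above the floor on 2 B6 Treg arrays alone, and raised to the floor its call was lost (adjusted p = 0.195 by limma). The 35 chemokine receptors, integrins and adhesion genes had 4 called lower, Ccr8, Ccr4, Itgb3 and Itgam. Itgb3, a chain of the vitronectin receptor, was at -0.62 ± 0.12 (adjusted p = 0.0180), which went to 0.0714 without B6 fusion Tconv replicate 1, 0.0665 without B6 ires Treg replicate 2, 0.0551 without NOD fusion Treg replicate 1 and 0.0531 without NOD ires Tconv replicate 2. The 31 effector and memory T cell genes split, with Il18r1 and Eomes higher and Id2 and Pdcd1 lower. The 15 Tconv-high genes also split, with Pde3b higher and Itgb3 lower. No gene was called among 35 interferon-stimulated genes (median -0.13), 22 of MHC class I and peptide loading (-0.14), 27 TCR-induced immediate-early genes (0.05), 20 of the BCL-2 family (-0.01) and 27 of glycolysis and HIF-1 targets (-0.14). The only killer lectin-like receptor called, of 6 tested, was Klrg1. Of the 21 list medians, 7 changed sign under at least 1 alternative: those of the chemokine, effector and memory, interferon, killer lectin, immediate-early, BCL-2 and myeloid lists.

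**Figure D4:**
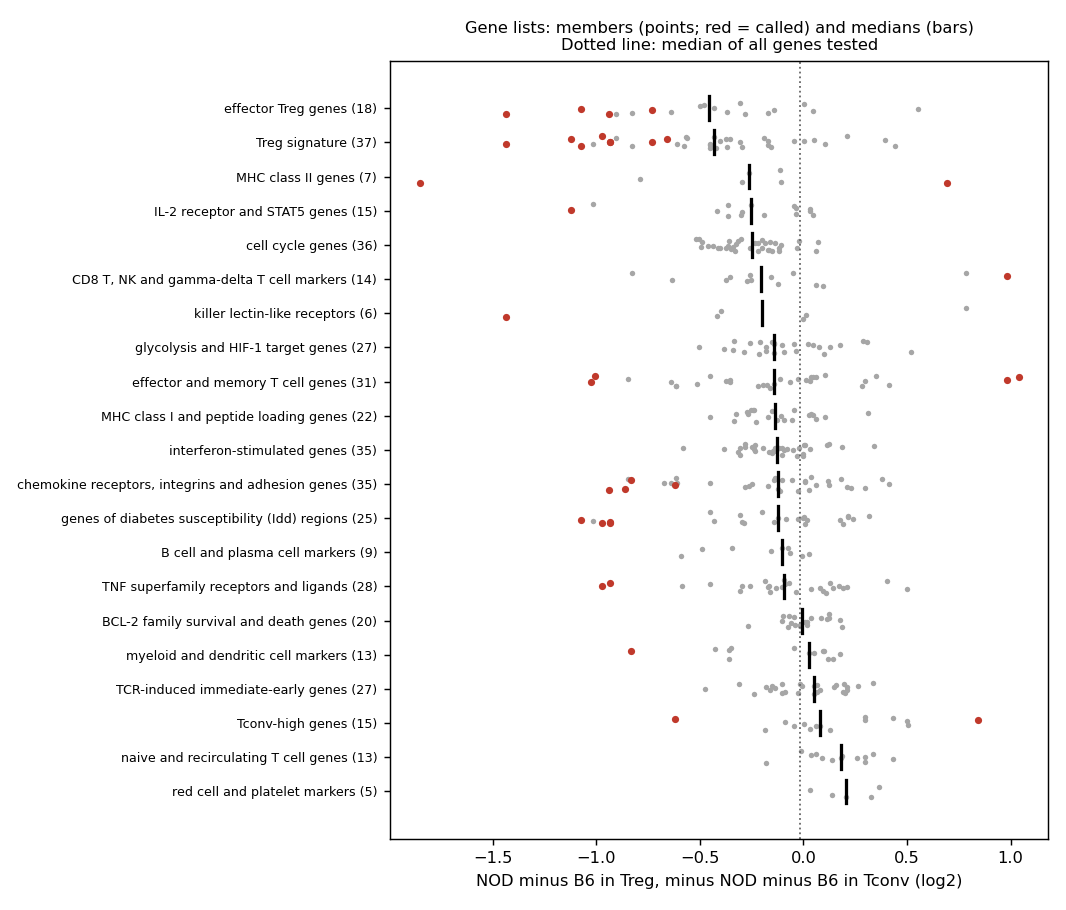
The contrast (log2, x axis) for the tested members of 21 gene lists (y axis, number tested in brackets); red points are called genes, bars are list medians, and the dotted line is the median of all genes tested, -0.01. The Treg signature and effector Treg lists have medians of -0.43 and -0.46, and all of their called members are on the negative side.

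Of the 5 lists of markers of other cell types, 3 held the 4 calls, where 0.820% of all genes were called. Cd74, the MHC class II invariant chain, read 7.66, 8.63, 7.69 and 7.45 in B6 Treg, 7.02, 6.65, 6.77 and 6.94 in NOD Treg, 5.81, 6.13, 5.82 and 5.97 in B6 Tconv and 8.27, 6.25, 6.46 and 6.10 in NOD Tconv. The contrast was -1.85 ± 0.41 (adjusted p = 0.0347), and -1.35 without NOD fusion Tconv replicate 1, the highest of the Tconv arrays. The call was kept in 7 of the 16 fits that leave out an array, with adjusted p up to 0.137. H2-Ob, also of MHC class II, was lower in NOD in both cells, by -1.05 in Treg and -1.74 in Tconv (contrast 0.69 ± 0.15, adjusted p = 0.0288). The myeloid integrin gene Itgam was at -0.83 ± 0.19 (adjusted p = 0.0418) and Eomes, a T-box factor of cytotoxic and memory cells, at 0.99 ± 0.21 (adjusted p = 0.0292). The adjusted p rose to 0.0848 for H2-Ob, 0.116 for Itgam and 0.108 for Eomes when single arrays were left out, and the calls were kept in 7, 3 and 7 of the 16 fits. Cd74, Itgam and Eomes were called in 6 of 10, 5 of 9 and 6 of 10 other settings that tested them.

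No B cell (9 tested) or red cell and platelet marker (5 tested) was called, with medians of -0.11 and 0.21. With values raised to the floor, Cd72, of the B cell list, passed limma at -0.92 (adjusted p = 0.000469). So raised, Cd72 differed between NOD and B6 by -1.94 in Treg and -1.02 in Tconv, and all its NOD Tconv arrays were below the floor. The summed level of the 10 measured MHC class II genes (log2 of summed intensities) ran from 10.40 to 10.79 in B6 Treg, 9.73 to 10.02 in NOD Treg, 10.06 to 10.12 in B6 Tconv and 9.50 to 10.34 in NOD Tconv. That of 21 B cell and plasma cell markers was 10.55 to 10.66, 10.16 to 10.45, 10.36 to 10.42 and 10.21 to 10.79 in the same order. For 28 myeloid and dendritic cell markers the ranges were 11.25 to 11.44, 11.38 to 11.55, 11.04 to 11.19 and 11.33 to 11.48. The 18 CD8, NK and gamma-delta T cell markers ran from 11.06 to 11.59, 10.83 to 11.02, 11.09 to 11.54 and 11.03 to 11.36, and the 8 red cell and platelet markers from 8.68 to 9.01, 8.79 to 9.08, 8.83 to 9.18 and 8.72 to 8.97. B cell, MHC class II and CD8, NK and gamma-delta marker sums were lower in NOD Treg than in B6 Treg without overlap. The myeloid and dendritic sum was higher in NOD Tconv than in B6 Tconv without overlap, and its Treg ranges overlapped. Such sums weigh the brightest members most. On all arrays, 3 of 21 B cell and 4 of 10 MHC class II genes were above the floor. So were 6 of 18 CD8, NK and gamma-delta markers and 2 of 28 myeloid and dendritic markers. A difference in a sum need not be shared by the members of its list. The part of other cell types in the contrast was not tested.

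The fusion and ires lines gave the contrast on separate arrays. It called 44 genes (0.344%) in fusion lines and 16 (0.125%) in ires lines, and the test of fusion minus ires called 0 (0%), with 386 genes at an unadjusted p under 0.05. All 105 genes called on the mean of both had the same sign in each, against 7211 of all 12798 genes (56.3%), a count that the call on the mean favours. Gsta4 was at -2.45 in fusion and -2.46 in ires lines and Cybrd1 at 1.73 and 1.91. For some Treg receptors the values lay further apart: Lrrc32 was at -1.45 and -0.41, Ccr8 at -1.44 and -0.44, Klrg1 at -2.12 and -0.75, and Tnfrsf4 at -1.26 and -0.68. The difference between the lines did not pass the test for these 4 genes (adjusted p = 1.00 for each). The median of the Treg signature was -0.60 in fusion and -0.30 in ires lines.

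Some called genes were neighbours on the chromosome with no other tested gene between them. D17H6S56E-5 and Vars, on chromosome 17, were both lower, at -1.23 ± 0.14 (adjusted p = 9.05e-05) and -1.05 ± 0.14 (0.000589). D17H6S56E-5 read 9.39, 9.50, 9.33 and 9.14 in B6 Treg, 6.95, 6.67, 6.70 and 6.76 in NOD Treg, and 7.59 to 8.15 and 6.34 to 6.84 in B6 and NOD Tconv, so that NOD was lower in both cells without overlap. Pqlc3 and the potassium channel subunit gene Kcnf1, on chromosome 12, had opposite signs, -0.92 ± 0.13 and 1.16 ± 0.16, Kcnf1 being below the floor in B6 Tconv (1.23 raised to it). Ehd4 and Pla2g4f, on chromosome 2, were also opposed, at -0.67 ± 0.15 and 0.78 ± 0.13. The call of Ehd4 was kept in 4 of the 16 fits that leave out an array, and Pla2g4f, below the floor in 3 of the 4 groups of strain and cell type, was at 0.22 ± 0.07 raised to the floor (adjusted p = 0.239), where its call was lost. Apart from the rule-named Kcnf1 and D17H6S56E-5, these neighbours were picked for their position among called genes.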

How the data were processed

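The authors deposited linear intensities of 25108 probe sets on 16 arrays, normalized with Affymetrix Power Tools and RMA per the submitters' processing notes; their versions and the build: not given in the sources used here. Array medians ranged from 86.7 to 99.0; precision is limited by how many arrays there are. Intensities were taken to log2 with no pseudocount. Of the probe sets, 21157 had 1 gene symbol, 1341 several and 2610 none in the platform annotation, giving 19531 genes; for 906 with several probe sets, that of the highest mean was used. The 12798 genes above the 40th percentile (6.06) on at least 2 arrays were tested with limma 3.58.1 (R 4.3.3): a mean per group, 8 groups, 8 residual and 9.80 prior degrees of freedom, two-sided tests of (NOD minus B6 in Treg) minus (NOD minus B6 in Tconv) over both reporter lines, and Benjamini-Hochberg adjustment over all 12798. The procedure was tested on simulated data. Figures were drawn with matplotlib 3.10.9.

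Named genes are the 14 highest and 14 lowest called genes of the same sign in both lines, up to 4 called genes per list, and Foxp3, Il2ra, Ctla4 and Ikzf2; predicted genes, clone-named genes and receptor segments were not named by the rule. The 16 pathway and 5 marker lists, like the contrast, were chosen with earlier results of these data known. Promoter sequences and gene order are from RefSeq tables on GRCm38.p6. Alternatives were no filter or a 60th percentile filter, a floor, median centring, quantile normalization, array weights, trend and robust variances, averaged probe sets, a replicate block, each array left out, and, added after seeing the data, the interquartile range of each array as a covariate.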

Additional observations from a re-analysis of the deposited data

Results flagged for a closer look

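The strain effect differed between Treg and Tconv for 105 of 12798 genes by the limma test of the difference itself, 32 more positive and 73 more negative in Treg.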

How the results depend on the processing

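Against 105 calls, the other settings gave 90 to 175, the 175 with the interquartile range of each array as a covariate, and leaving out single arrays gave 69 to 141. Of the 105, 55 were called under every setting that tested them and every left-out array. Higher calls numbered 61 with quantile normalization and 76 with the covariate, and 22 to 39 with arrays left out; lower calls numbered 47 with arrays centred on their medians, 99 with the covariate, and 46 to 110 with arrays left out. The strain effect in Treg gave 1597 to 3063 calls with arrays left out, and that in Tconv 841 to 2365, and 752 with the covariate. In Treg the counts were 1640 without B6 fusion Treg 1, 1597 without B6 ires Treg 2 and 1744 without NOD fusion Treg 2, and in Tconv the counts were 894 without B6 fusion Tconv 1, 911 without NOD fusion Tconv 2, 1030 without B6 ires Tconv 1 and 841 without NOD ires Tconv 1. In fusion lines centring gave 20 calls and left-out arrays 22 to 48 (25 without B6 fusion Tconv 1, 26 and 22 without B6 fusion Treg 1 and 2). In ires lines the counts were 7 with centring, 27 with trend and robust variances, 28 with the covariate, and 8 to 18 with arrays left out (9 without B6 ires Tconv 1, 10 and 8 without B6 ires Treg 1 and 2, 8 without NOD ires Treg 2). Fusion minus ires gave 0 calls in every setting run. The causes were not tested. No named gene or count reversed. Of the 43 called genes named by the rule, 30 were called throughout.

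With the replicate number as a block, 140 genes were called, among them all 105. The block gave 3204 calls for the strain effect in Treg and 2655 for that in Tconv, against 2690 and 2033 without it. Same-numbered arrays of different groups deviated together in part: over 28 pairs of groups r ran from -0.37 to 0.47, with a median of 0.15, over 0.1 in 16. The numbers were not taken as pairs in the main fit, and whether same-numbered arrays share a batch was not tested.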
